A study of Mus musculus with 9 samples.

Results

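Ribosome biogenesis and RNA polymerase I (Pol I) are covered here by a list of 46 genes, chosen by name. They encode Pol I and its partners, the scaffold proteins of the nucleolus, and the factors that modify, cut and assemble ribosomal RNA (rRNA). This list and the further list below were chosen with earlier results of these data known. Their shares beside all genes are therefore descriptions. Of the 46 genes, 44 had a probe set on the array that named no other gene, and all 44 were among the 16582 genes tested. Npm3 and Noc2l are named alone by no probe set in the annotation used, so they have no value here. Expression was measured in wild-type Balb/c mouse cells of skeletal muscle origin, with 3 arrays for cycling myoblasts at day 0, 3 for myotubes after 2 days and 3 for myotubes after 5 days. Myoblasts are the dividing precursors of muscle fibres, and myotubes are the multinucleated cells they fuse into after leaving the cell cycle. Titles of the myotube samples name a differentiating medium, while the growth protocol gives a single serum medium with bFGF for every time point. No label says that the replicates came from separate cultures or animals, so each p-value measures the spread between these arrays only, which may be technical.

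Ribosomes are built in the nucleolus. Pol I transcribes the ribosomal DNA repeats into a long precursor, small nucleolar RNPs (snoRNPs) direct its methylation, pseudouridylation and early cleavage, and separate sets of factors mature the small and the large subunit. Making ribosomes is among the costliest activities of a growing cell, and the pathway is known to be most active in proliferating cells. Many of its genes are known targets of Myc, which binds the E-box CACGTG.

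Deposited values are log2 expression values that had been normalized separately for each time point, so a difference between time points also holds any difference between the normalizations, and the 2 cannot be told apart. Each comparison is therefore given as deposited and on a common scale, in which all 9 arrays were brought to the same distribution by quantile normalization. Moving to the common scale shifted the median difference of all 16582 genes by 0.10 at day 2 against cycling myoblasts, 0.55 at day 5 against cycling myoblasts and 0.46 at day 5 against day 2, in log2 units. A gene is called lower or higher where limma's adjusted p was under 0.05 in the same direction on both scales, and called at least 2-fold where the log2 difference also reached 1 on both. Many probe sets carried the same value on all 3 arrays of a time point, including 16 of the 44 members in cycling myoblasts, and 28 and 27 of them in day 2 and day 5 myotubes, which makes SDs and p-values too small. The array median was 4.33 to 4.35 in cycling myoblasts, 4.26 at day 2 and 3.98 to 3.99 at day 5, and no member lay below it at any time point. All values below are RNA from whole cultures, in which fewer cells of a type and less RNA per cell cannot be told apart.

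Marker genes told cycling myoblasts and myotubes apart as labelled. Ckm, the muscle creatine kinase, averaged 6.19 in cycling myoblasts, 11.01 in day 2 myotubes and 11.34 in day 5 myotubes (log2, as deposited). The proliferation marker Mki67 averaged 8.74, 3.26 and 2.87 in that order of time. All 5 myotube markers were called higher than in cycling myoblasts at both times. From day 2 to day 5, as deposited, Ckm rose by 0.33, while Myog (-1.36), Myh3 (-1.16), Acta1 (-0.36) and Tnnt3 (-0.25) fell. Of the 4 myoblast markers, Myod1, Myf5 and Pax7 were called lower and Des higher at both times against cycling myoblasts. Summed on the linear scale, the 3 cycling markers with a probe set of their own (Mki67, Top2a and Pcna) gave 2490 to 2510 in cycling myoblasts, 297 to 307 at day 2 and 222 at day 5. All 3 were called at least 2-fold lower at day 2 and at day 5 than in cycling myoblasts. Of the 44 members, 6 (13.6%) and 16 (36.4%) were, beside 8.41% and 12.3% of all genes. How much of the members' falls goes with that of the cycling markers was not tested. At day 5 against day 2, 2 of the 3 cycling markers were called lower and 0 at least 2-fold, with common-scale differences of -0.16 to 0.24. Of the markers of other cell types, 0 of 4 endothelial genes lay above the array median at any time, 1 of 4 leukocyte genes did so in cycling myoblasts and 0 of 4 later, and 2 of 4 fibroblast genes did so in cycling myoblasts and at day 2, and 3 of 4 at day 5. Of the 3 adipocyte genes 1 did so at each time point, and of the 2 Schwann cell genes 0 did so in cycling myoblasts and 1 at each later time.

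Promoters are shown for Utp20 and Nop58, the members that fell most, and for the 3 members that hold the Myc E-box. Each is the 250 bases before the RefSeq start of transcription in GRCm38.p6, written 5′ to 3′ on the strand of the gene, with capitals marking CACGTG and the ETS-type motif CCGGAAG, both searched on either strand. Utp20 lies at chr10:88826815-88827064 on the minus strand and Nop58 at chr1:59684756-59685005 on the plus strand. Nop2 lies at chr6:125131633-125131882 (plus), Utp18 at chr11:93885767-93886016 (minus) and Imp4 at chr1:34439579-34439828 (plus).
Utp20: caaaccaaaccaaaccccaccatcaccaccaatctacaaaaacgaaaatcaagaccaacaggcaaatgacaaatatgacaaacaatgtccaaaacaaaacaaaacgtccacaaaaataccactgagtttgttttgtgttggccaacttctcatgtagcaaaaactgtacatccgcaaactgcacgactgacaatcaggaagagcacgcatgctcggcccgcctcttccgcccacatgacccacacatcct
Nop58: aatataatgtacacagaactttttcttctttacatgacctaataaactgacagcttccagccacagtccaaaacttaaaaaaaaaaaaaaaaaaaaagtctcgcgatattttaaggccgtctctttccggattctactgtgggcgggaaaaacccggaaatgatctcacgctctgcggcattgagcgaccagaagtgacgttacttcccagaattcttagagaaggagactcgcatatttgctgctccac
Nop2: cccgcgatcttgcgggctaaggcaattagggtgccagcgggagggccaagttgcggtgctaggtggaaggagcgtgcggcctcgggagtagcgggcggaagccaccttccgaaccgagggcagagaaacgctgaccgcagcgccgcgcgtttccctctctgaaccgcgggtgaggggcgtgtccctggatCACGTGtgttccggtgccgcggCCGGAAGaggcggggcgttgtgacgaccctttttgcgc
Utp18: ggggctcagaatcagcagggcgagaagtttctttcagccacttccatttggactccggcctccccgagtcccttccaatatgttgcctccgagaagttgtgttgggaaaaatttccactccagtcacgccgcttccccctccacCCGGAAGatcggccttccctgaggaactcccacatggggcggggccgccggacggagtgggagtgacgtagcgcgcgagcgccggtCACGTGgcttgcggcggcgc
Imp4: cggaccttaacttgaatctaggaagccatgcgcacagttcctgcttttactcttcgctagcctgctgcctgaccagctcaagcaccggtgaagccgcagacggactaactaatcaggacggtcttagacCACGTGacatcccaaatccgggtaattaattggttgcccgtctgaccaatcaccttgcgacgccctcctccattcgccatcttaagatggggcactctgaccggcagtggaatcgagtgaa

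Neither motif occurs in the windows of Utp20 and Nop58, the members with the largest falls at day 5 on the common scale. The CACGTG of Nop2 begins 60 bases before the start, that of Utp18 20 bases and that of Imp4 121 bases, and Nop2 and Utp18 also carry CCGGAAG, at 38 and 106 bases. Windows were at hand for 37 of the 44 members. CACGTG occurred in 3 of the 37 (8.11%), against 7.61% of 17492 protein-coding genes. CAGCTG, the E-box form bound by the muscle factors MyoD and myogenin, occurred in 7 of the 37 (18.9%), against 13.8% of protein-coding genes. CCGGAAG occurred in 9 of the 37 (24.3%), against 10.2% of protein-coding genes: Ddx10, Gar1, Heatr1, Nhp2, Nolc1, Nop2, Polr1c, Utp18 and Utp3. All 9 had a lower day 5 than cycling level on the common scale, with log2 differences of -1.17 to -0.40 and a median of -0.94. The 28 members whose window lacked it ran from -2.31 to 0.53, with a median of -0.52. For CACGTG the medians were -0.66 with the motif and -0.66 without. For CAGCTG they went the other way from CCGGAAG, with -0.40 with the motif and -0.70 without. Whether any motif goes with the size of the fall was not tested. A match describes the letters of the window and shows no binding.

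Most of the ribosome biogenesis genes fell when myoblasts became myotubes, and went on falling between day 2 and day 5. At day 2, 33 of the 44 (75%) were called lower than in cycling myoblasts, where 37.4% of all genes tested were, and 4 were called higher (Imp3, Rrp12, Bop1 and Nop16), where 42.8% of all genes were. Falls of at least 2-fold at day 2 took in 6 members, Ncl, Fbl, Gar1, Utp20, Utp15 and Srm (13.6%), against a background of 8.41%, and rises of that size took in 0, against 6.04%. At day 5, 35 members (79.5%) were called lower than in cycling myoblasts, against 38.1% of all genes, and 0 higher, against 29.7%. The at least 2-fold falls at day 5 numbered 16 (36.4%), against 12.3% of all genes, and the rises 0, against 4.44%. As deposited alone, 34 members were at least 2-fold lower at day 5, against 29.2% of all genes, so this count rests on the scale. The largest adjusted p among the members called lower, on either scale, was 0.00307 at day 2 and 0.000898 at day 5 (limma). As the list was chosen with earlier results known, these shares describe the members and do not test them as a set.

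Between day 2 and day 5 the decline was broad but small on the common scale. Set against day 2, 33 members were called lower at day 5, where 40.6% of all genes were, and 0 higher, where 16.2% were. The largest adjusted p among the 33 rounded to 0.05 (limma, common scale). It belonged to Wdr12, whose common-scale difference was only -0.06, so that call lay at the threshold. Nop58 alone fell at least 2-fold in that interval on both scales, against 3.67% of all genes, and 0 members rose that far, against 0.766%. As deposited, without the common scale, 22 members were at least 2-fold lower, where 15.4% of all genes were, so this count rests on the scale. The 3 comparisons share arrays pairwise, so they are not independent of each other.

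Sizes depended on the scale. The median log2 difference of the 44 members at day 2 against cycling myoblasts was -0.51 for the deposited values and -0.36 for the common scale, where all genes had -0.01 and 0.09. At day 5 against cycling myoblasts it was -1.59 and -0.65, where all genes had -0.37 and 0.17. At day 5 against day 2 it was -0.97 and -0.31, where all genes had -0.40 and 0.06. Relative to the all-gene median, 37, 39 and 39 of the 44 members lay below it on both scales in these 3 comparisons. As deposited, all 44 members were lower on every day 5 array than on every cycling array and every day 2 array. At day 2 against cycling myoblasts, 38 lay wholly lower and 6 wholly higher. Groups without overlap were thus found in every member, also in Polr1b and Utp14a, which were not called at day 2. These counts were not made over all genes, whose deposited median at day 5 also fell (-0.37), so they do not set the members apart. At day 5 against cycling myoblasts, 8 of the 44 members (Nop10, Utp14a, Imp3, Noc4l, Nat10, Rrp12, Bop1 and Nop16) turned to the other side on the common scale. They were higher at day 5 there, so no direction is given for those 8.

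**Figure D1:**
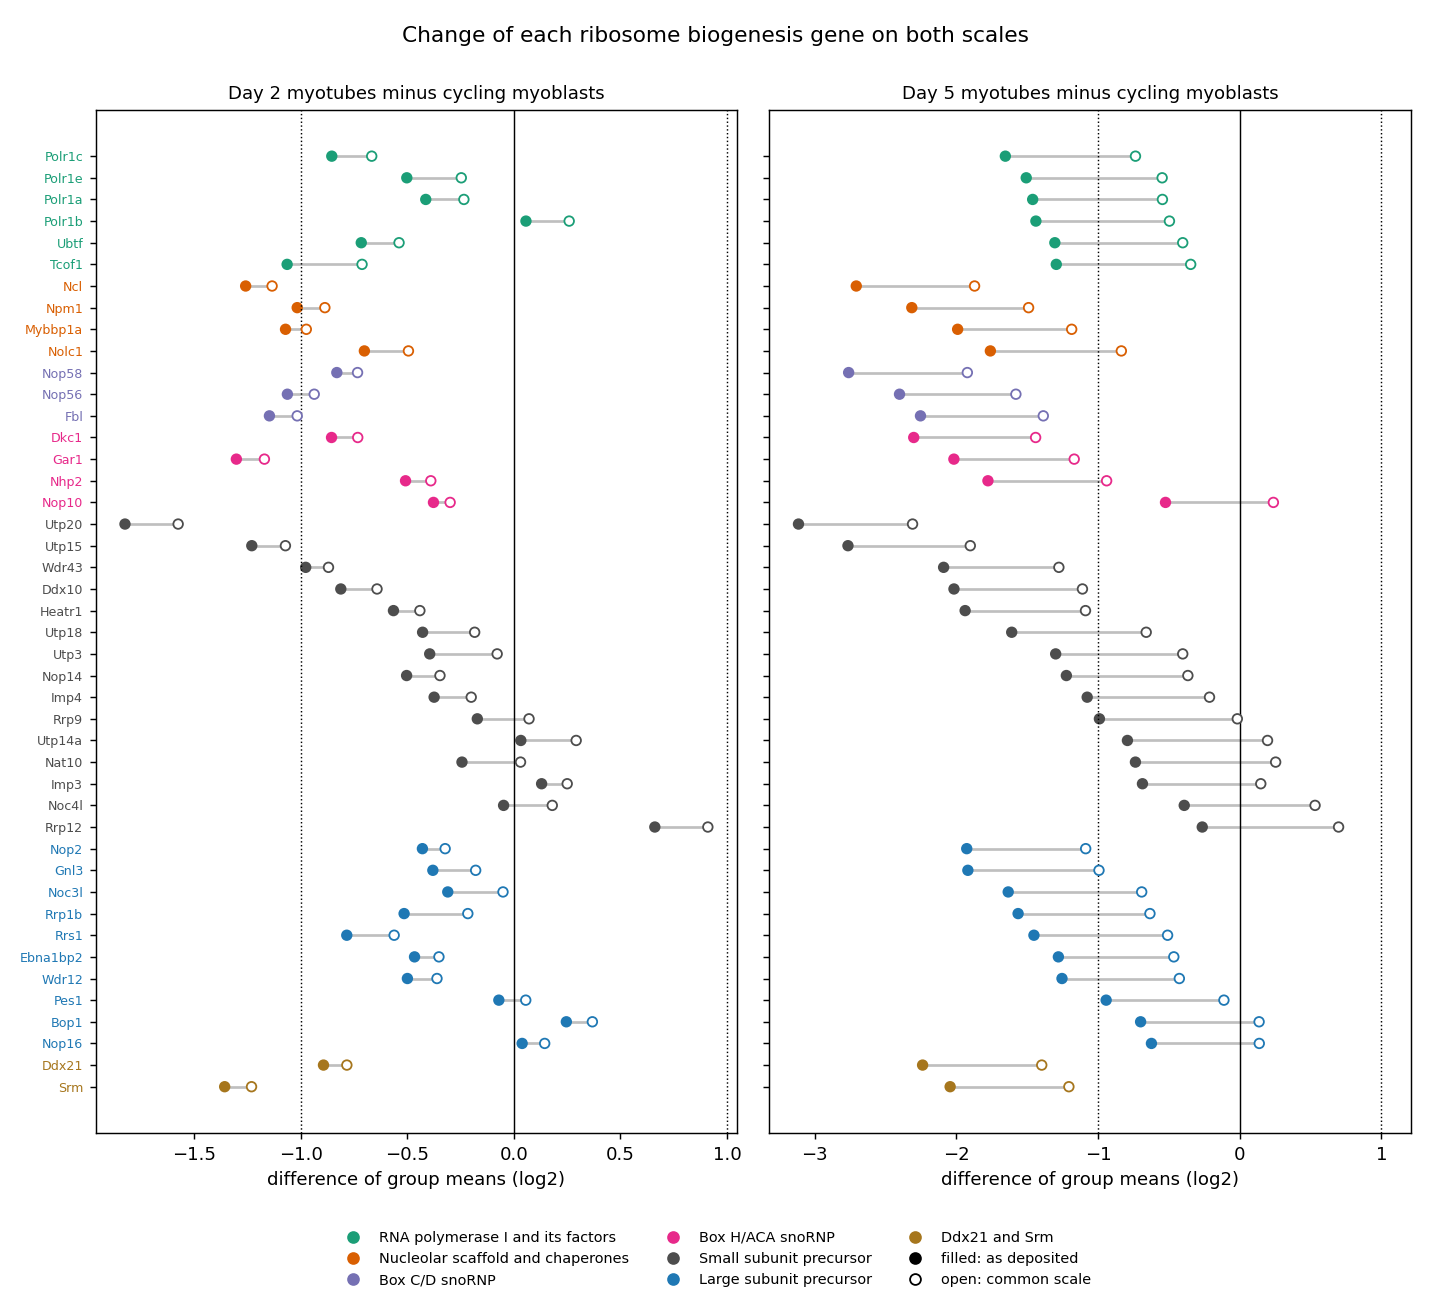
Log2 difference of group means for each of the 44 genes at day 2 (left) and day 5 (right) against cycling myoblasts, coloured by role, with filled points as deposited and open points on the common scale (3 arrays per time point). Dotted lines mark 2-fold. At day 5 all 44 filled points lie left of 0, while 8 open points lie right of it.

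The 6 members that encode RNA polymerase I and its direct partners fell modestly. Of the 6, 5 were called lower at day 2 and 6 at day 5, but 0 reached 2-fold on both scales. For this and the other roles below, the shares of all genes called lower were 37.4% at day 2 and 38.1% at day 5. Those at least 2-fold lower were 8.41% and 12.3%. The median of the 6 members at day 5 against cycling myoblasts came to -1.45 as deposited and -0.52 on the common scale. For the 10 further Pol I genes described below, it was -0.92 and -0.06. Among the 6 members, Polr1c, a subunit shared by Pol I and RNA polymerase III, showed the largest fall at day 5. It read 7.99, 8.01 and 7.98 on the cycling arrays, 7.18, 7.13 and 7.10 on the day 2 arrays and 6.34 on each day 5 array. The 3 groups did not overlap as deposited. On the common scale Polr1c was -0.67 ± 0.021 (SE) at day 2 and -0.74 ± 0.021 at day 5 against cycling myoblasts, so nearly all of its fall was in place by day 2 on that scale.

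Tcof1 encodes treacle, a nucleolar partner of Pol I and Ubtf, and showed the smallest difference at day 5 among the Pol I members. Its arrays gave 6.56, 6.85 and 6.80 in cycling myoblasts, 5.67 on each array at day 2 and 5.44 on each at day 5. Cycling replicate 1 was the lowest of its group but still above every myotube array. Against cycling myoblasts the common-scale difference was -0.71 ± 0.062 at day 2 and -0.35 ± 0.062 at day 5, and between day 5 and day 2 the sign turned with the scale, with -0.23 as deposited and 0.37 on the common scale. Ubtf, the upstream binding factor that keeps rDNA open, had the same course, with common-scale differences of -0.54 at day 2 and -0.40 at day 5 against cycling myoblasts.

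The catalytic subunits differed from each other in timing. Polr1a and Polr1b together form the active centre of Pol I. Polr1a was called lower at both times, with common-scale differences of -0.24 at day 2 and -0.55 at day 5. Polr1b at day 2 had a deposited difference from cycling myoblasts of 0.06 (adjusted p = 0.172, limma) and a common-scale difference of 0.26, which made no call. It was called lower at day 5, by -1.44 as deposited and -0.50 on the common scale against cycling myoblasts. Polr1e, a Pol I subunit that takes part in initiation, was lower by -0.25 at day 2 and -0.55 at day 5 on the common scale.

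Scaffold proteins and chaperones of the nucleolus fell more. All 4 were called lower at both times, 1 of them (Ncl) at least 2-fold at day 2 and 3 (Ncl, Npm1 and Mybbp1a) at day 5, with a median at day 5 of -2.15 as deposited and -1.34 on the common scale. Nucleolin, the product of Ncl, binds rDNA chromatin and the nascent precursor. Ncl read 10.17, 10.18 and 10.13 in cycling myoblasts, 8.90 on each day 2 array and 7.22, 7.53 and 7.61 at day 5. The time points were fully separated. Its level at day 5 against cycling myoblasts was 6.53-fold lower as deposited and 3.66-fold lower on the common scale (log2 -1.87 ± 0.090 SE).

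Npm1 encodes nucleophosmin, an abundant nucleolar chaperone. Its values were 10.18, 10.12 and 10.13 in cycling myoblasts, 9.12, 9.07 and 9.18 at day 2, and 7.62, 7.98 and 7.89 at day 5. Every later group lay wholly below the earlier ones. The common-scale differences from cycling myoblasts were -0.89 ± 0.087 at day 2 and -1.49 ± 0.087 at day 5.

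Mybbp1a, a nucleolar protein tied to precursor processing, read 9.28, 9.48 and 9.48 in cycling myoblasts, 8.35 on each day 2 array and 7.45, 7.45 and 7.39 at day 5. Again no groups overlapped. The differences from cycling myoblasts on the common scale were -0.97 ± 0.040 at day 2 and -1.19 ± 0.040 at day 5. Without cycling replicate 1, the lowest of its group, the day 2 difference was -1.03 on the common scale and passed 2-fold on both. Nolc1, a chaperone of snoRNPs, read 7.76, 7.83 and 7.80 in cycling myoblasts, 7.11, 7.11 and 7.07 at day 2 and 6.04 on each array at day 5. Its arrays were just as clearly separated, but its day 5 difference of -0.84 ± 0.014 on the common scale stayed short of 2-fold.

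The box C/D snoRNP methylates rRNA at sites chosen by its guide RNA. Its 3 listed members had the deepest decline of any role with more than 2 members. All 3 were called lower at both times. At day 5 all 3 were called at least 2-fold lower, with medians of -2.40 (deposited) and -1.58 (common scale). Snu13, another core gene of this particle, belongs to the further list below and fell less. It was called lower at both times but not 2-fold, with day 5 differences from cycling myoblasts of -1.24 (deposited) and -0.46 (common scale). Nop58 and Nop56 form the platform of the particle. Nop58 read 9.55, 9.56 and 9.53 in cycling myoblasts, 8.72 on each array at day 2, and 6.53, 6.86 and 6.98 at day 5. The step from day 2 to day 5 was its larger one, and no groups overlapped. Its level at day 5 against cycling myoblasts was 6.78-fold lower as deposited and 3.79-fold lower on the common scale (log2 -1.92 ± 0.091 SE), of which -1.19 fell between day 2 and day 5.

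Nop56 read 10.21, 10.21 and 10.18 in cycling myoblasts, 9.14, 9.14 and 9.12 at day 2 and 7.79, 7.81 and 7.79 at day 5. The 3 groups were far apart and each was tight. On the common scale it was lower than in cycling myoblasts by -0.94 ± 0.029 at day 2 and -1.58 ± 0.029 at day 5.

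Fibrillarin, encoded by Fbl, is the methyltransferase of the particle. Fbl read 8.74, 8.56 and 8.56 in cycling myoblasts, 7.47 on each day 2 array and 6.37 on each day 5 array. The groups did not overlap. Common-scale differences from cycling myoblasts were -1.02 ± 0.059 at day 2 and -1.39 ± 0.059 at day 5. Its 2-fold call at day 2 was marginal: it was lost without cycling replicate 1 (-0.95 on the common scale), and the second probe set that names Fbl gave -0.71 at day 2 and -1.18 at day 5. The annotation used gives no position for the probe sets of Fbl or Wdr12, so whether the one used for either gene reads a near-identical copy was not checked.

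The box H/ACA snoRNP, which converts uridines of rRNA to pseudouridine, was split. All 4 core genes were called lower at day 2 and 3 of them at day 5, with a day 5 median of -1.90 as deposited and -1.05 on the common scale. Dkc1 encodes dyskerin, the pseudouridine synthase. It read 8.67 on each cycling array, 7.82 on each day 2 array and 6.19, 6.39 and 6.54 at day 5. The day 5 arrays were spread but all lay below day 2. On the common scale Dkc1 was lower than in cycling myoblasts by -0.73 ± 0.070 at day 2 and -1.44 ± 0.070 at day 5.

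Gar1, which helps place the substrate RNA, fell early. Its values were 8.82, 8.72 and 8.71 in cycling myoblasts, 7.45 on each day 2 array and 6.73 on each day 5 array. The drop to day 2 was the larger on the deposited scale, and on the common scale it was the whole change. Against cycling myoblasts the common-scale difference was -1.17 ± 0.039 at day 2 and again -1.17 ± 0.039 at day 5, with 0.00 between day 5 and day 2 (adjusted p = 0.941, limma). Nhp2, another core protein, had -0.39 at day 2 and -0.94 at day 5 on that scale.

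Nop10, the smallest core protein, stood apart from its partners. It read 9.07, 9.32 and 9.25 in cycling myoblasts, 8.84 on each day 2 array and 8.70, 8.70 and 8.68 at day 5. Its deposited groups did not overlap, yet the spread among cycling arrays was close to the gap to day 2. It was called lower at day 2, by -0.38 as deposited and -0.30 on the common scale, and at day 5 its difference from cycling myoblasts came to -0.52 as deposited and 0.24 on the common scale.

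**Figure D2:**
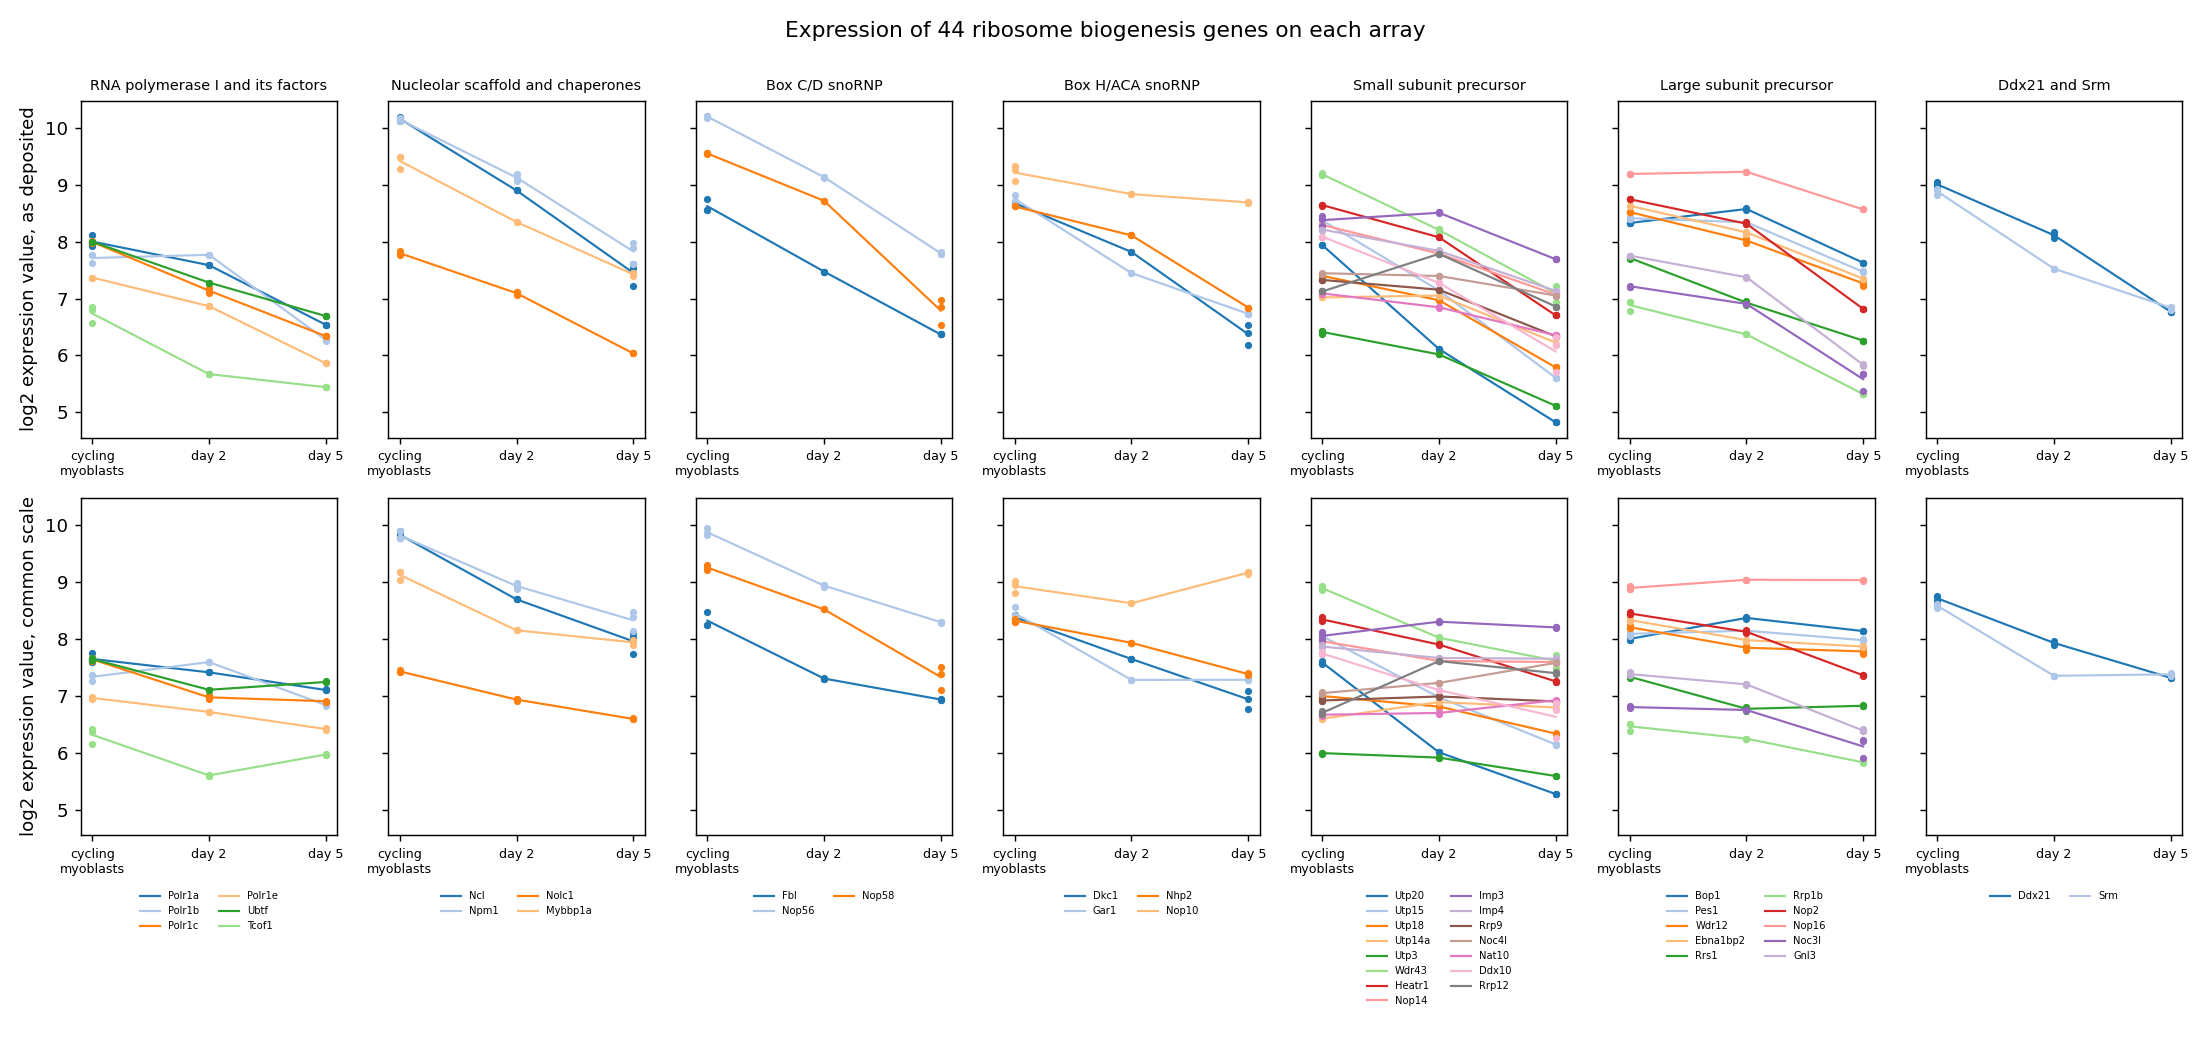
Log2 expression value (vertical axes) of the 44 genes at the 3 time points (cycling myoblasts, day 2, day 5), by role, as deposited (top) and on the common scale (bottom). Points are single arrays and lines join the means of 3 arrays. Nop58 shows its steeper step after day 2, and Rrp12 lies higher at day 2 than in cycling myoblasts on both scales.

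The factors of the small subunit ranged from Utp20, with the largest fall of all members, to Rrp12, which was higher at day 2. Of the 15, 9 were called lower at day 2 and 2 higher, beside 37.4% and 42.8% of all genes. At day 5, 9 were called lower and 0 higher, beside 38.1% and 29.7% of all genes. Day 5 medians were -1.22 as deposited and -0.37 on the common scale. Falls of at least 2-fold at day 5, called in 12.3% of all genes, took in 5: Utp20, Utp15, Wdr43, Heatr1 and Ddx10. Utp20, a very large repeat protein of the small-subunit processome, read 7.94 on each cycling array, 6.11 on each day 2 array and 4.82 on each day 5 array. The 3 time points were far apart, and no other member fell as much at day 2 or at day 5. At day 5 it was 8.66-fold lower as deposited and 4.96-fold lower on the common scale than in cycling myoblasts (log2 -2.31 ± 0.011 SE), and at day 2 the common-scale difference was -1.58.

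Utp15, Heatr1 and Wdr43 have yeast counterparts in the subcomplex that links the processome to rDNA transcription. Utp15 read 8.37, 7.14 and 5.61 on each array of cycling myoblasts, day 2 and day 5. Heatr1 read 8.65, 8.65 and 8.63 in cycling myoblasts, 8.08 on each day 2 array and 6.70 on each day 5 array. Wdr43 read 9.18, 9.20 and 9.18 in cycling myoblasts, 8.23, 8.23 and 8.17 at day 2 and 6.94, 7.12 and 7.22 at day 5. Like every member, each of these genes was separated at every time point as deposited. Against cycling myoblasts on the common scale, Utp15 had -1.07 ± 0.014 (SE) at day 2 and -1.90 ± 0.014 at day 5. Heatr1 had -0.44 ± 0.016 at day 2 and -1.09 ± 0.016 at day 5. For Wdr43 the values were -0.87 ± 0.056 at day 2 and -1.28 ± 0.056 at day 5, so on that scale Heatr1 had the larger part of its fall after day 2 and the other two before. As deposited, the larger part came after day 2 in all 3 genes.

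Ddx10, a DEAD-box RNA helicase, was the most variable member. It read 8.09 on each cycling array, 7.28 on each day 2 array, and 5.71, 6.18 and 6.32 at day 5 (SD 0.323, n = 3). All day 5 arrays lay below day 2, with replicate 1 the lowest. Its common-scale difference at day 5 against cycling myoblasts was -1.11 ± 0.142, and without day 5 replicate 1 it was -0.92 and the 2-fold call was lost. Replicate 1 was also the lowest day 5 array in all 8 members whose day 5 arrays spread by more than 0.1, among them Ncl, Npm1, Nop58, Dkc1, Wdr43 and Noc3l. In cycling myoblasts 10 members spread by more than 0.1, and replicate 1 was the lowest array in 8 and the highest in 2.

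Rrp12, a factor for export of pre-ribosomal particles in yeast, went the other way at day 2. It read 7.12 on each cycling array, 7.79 on each day 2 array and 6.86 on each day 5 array. At day 2 it was called higher than in cycling myoblasts, by 0.66 as deposited and 0.91 on the common scale, which was the largest rise among the members. At day 5 the deposited difference from cycling myoblasts was -0.26 and the common-scale difference 0.70. Imp3, a component of the small-subunit processome, was also called higher at day 2, by 0.13 as deposited (adjusted p = 0.0184, limma) and 0.25 on the common scale.

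The other small-subunit factors had small differences on the common scale. Utp18, Nop14, Imp4 and Utp3 were called lower at both times, with day 5 differences from cycling myoblasts of -0.66, -0.37, -0.21 and -0.40. Rrp9, a protein of the snoRNP that guides early cleavage, differed by -0.99 as deposited and -0.02 on the common scale at day 5 (adjusted p = 0.11 on the common scale, limma). Nat10, which acetylates cytidines of rRNA, Noc4l and Utp14a turned sign between scales at day 5 and were not called.

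Large-subunit factors behaved much like those of the small subunit at the median. Of the 10, 6 were called lower and 2 higher at day 2, beside 37.4% and 42.8% of all genes. At day 5, 8 were called lower, beside 38.1% of all genes. Day 5 medians were -1.37 as deposited and -0.49 on the common scale. Nop2, a methyltransferase of large-subunit rRNA, was the 1 of the 10 called at least 2-fold lower at day 5, near the 12.3% of all genes. It read 8.74 on each cycling array, 8.34, 8.30 and 8.30 at day 2 and 6.82 on each day 5 array. Most of its fall came after day 2. On the common scale it was lower than in cycling myoblasts by -0.32 ± 0.016 at day 2 and -1.09 ± 0.016 at day 5.

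Gnl3 encodes nucleostemin, a nucleolar GTPase known from stem and progenitor cells. It lay next to the 2-fold line, with day 5 differences from cycling myoblasts of -1.92 as deposited and -0.99 on the common scale, and -0.18 at day 2 on the common scale. Leaving out cycling replicate 2, cycling replicate 3 or day 5 replicate 2 moved it to -1.008, -1.005 or -1.003 and gave the 2-fold call. Noc3l, a pre-ribosome transport factor in yeast, made no call at day 2 (common scale -0.05, adjusted p = 0.543, limma) and was lower at day 5 by -0.69 on the common scale.

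Pes1, Bop1 and Wdr12 form a trimer needed to process the large-subunit precursor, and their RNAs did not move as a unit. Wdr12 was called lower at both times, with common-scale differences from cycling myoblasts of -0.36 at day 2 and -0.43 at day 5. Pes1 was not called at day 2, where it had -0.07 as deposited and 0.06 on the common scale, and was lower at day 5 by -0.11 on the common scale. Bop1 was called higher at day 2, by 0.25 as deposited and 0.37 on the common scale, and had no settled direction at day 5, with -0.70 as deposited and 0.14 on the common scale. A second probe set that names Wdr12 gave -0.31 at day 2 and -0.36 at day 5 on the common scale.

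Rrs1, Ebna1bp2 and Rrp1b, assembly factors of the large subunit, were called lower at both times, with day 5 differences from cycling myoblasts of -0.51, -0.47 and -0.63 on the common scale. Nop16, also an assembly factor, had the smallest deposited difference of the 10 at day 5. It read 9.19 on each cycling array, 9.23 on each day 2 array and 8.57 on each day 5 array. It was called higher at day 2 by only 0.04 as deposited and 0.14 on the common scale, and at day 5 against cycling myoblasts it had -0.62 as deposited and 0.14 on the common scale.

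Ddx21 and Srm, listed with the pathway for their link to nucleolar growth, both fell at least 2-fold at day 5. Ddx21 is an RNA helicase that binds nascent rRNA and snoRNAs. It read 8.99, 9.05 and 8.98 in cycling myoblasts, 8.11, 8.16 and 8.07 at day 2 and 6.77 on each day 5 array. The groups did not overlap, and its common-scale difference from cycling myoblasts was -0.78 ± 0.027 at day 2 and -1.40 ± 0.027 at day 5. Srm, spermidine synthase, read 8.81, 8.91 and 8.93 in cycling myoblasts, 7.52 on each day 2 array and 6.80, 6.86 and 6.86 at day 5. As with Gar1, the common-scale change was complete by day 2, with -1.23 ± 0.019 then and -1.21 ± 0.019 at day 5.

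The members thus differed in when they were called lower on both scales. Of the 44, 25 (56.8%) were called lower at day 2 and lower again at day 5 than at day 2, a course taken by 17.7% of all genes tested. Another 8 were lower at day 2 with no further call (Ubtf, Tcof1, Gar1, Nop10, Nop14, Imp4, Rrs1 and Srm), where 13.7% of all genes were. As deposited, these 8 also lay lower at day 5 than at day 2, by -0.72 (Nop14) to -0.15 (Nop10), where the median of all genes was -0.40. This split by timing therefore rests on the scale. Not called at day 2 but lower at day 5 than at day 2 were 5 members (Polr1b, Utp14a, Rrp9, Pes1 and Noc3l), where 6.59% of all genes were. Imp3, Rrp12 and Bop1 were higher at day 2 and lower at day 5 than at day 2, as were 16.3% of all genes. A fall at day 2 followed by a rise was called in 0 members, against 5.98% of all genes. Noc4l, Nat10 and Nop16 had some other combination of calls, as had 39.7% of all genes.

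**Figure D3:**
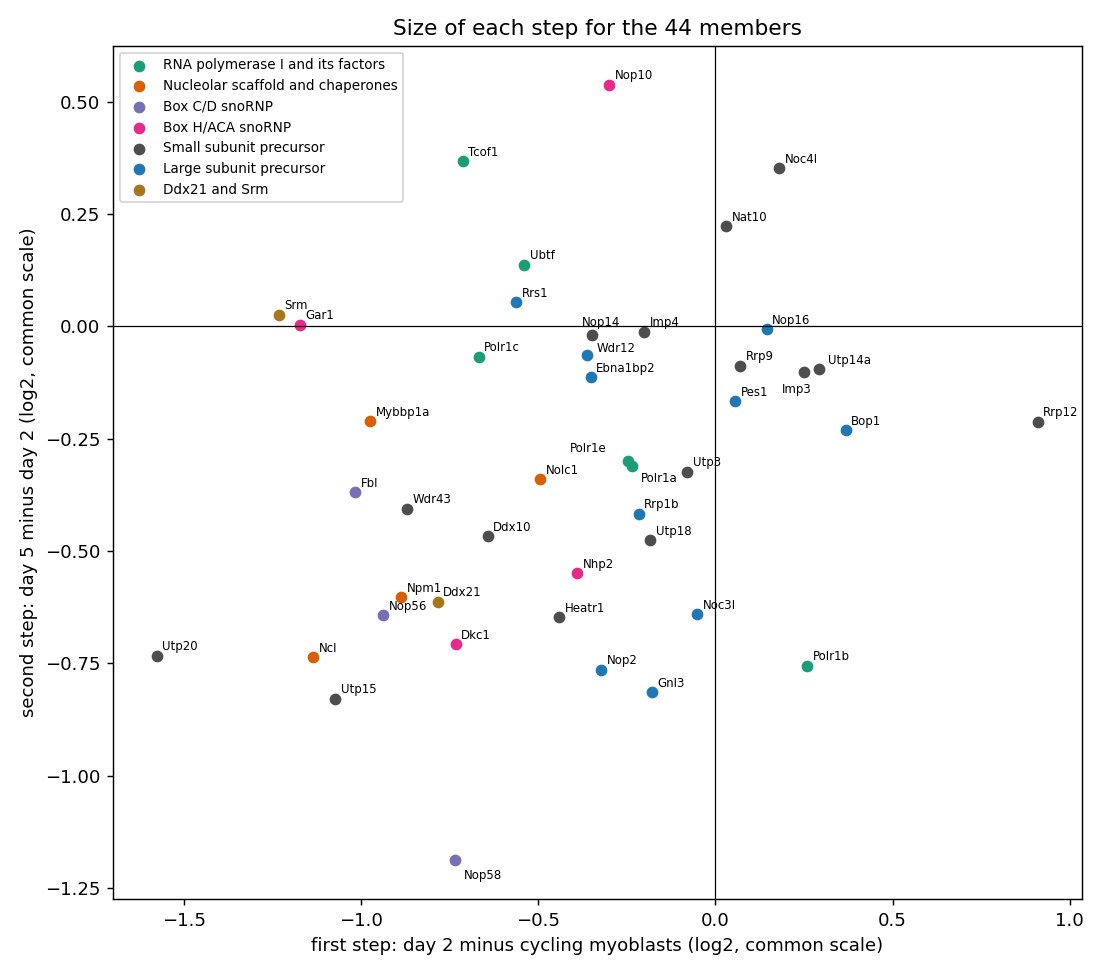
First step (day 2 minus cycling myoblasts, horizontal) against second step (day 5 minus day 2, vertical) for the 44 genes, log2 on the common scale, coloured by role. Both axes use the day 2 arrays, so the points are a description. Utp20, Ncl and Utp15 lie far to the lower left, Nop58 has the lowest second step at -1.19, and Gar1 and Srm lie near 0 on the second step.

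Other genes of the pathway were also called lower more often than higher, but seldom by 2-fold on both scales. A further list of 104 Pol I and ribosome biogenesis genes had 101 with a probe set of their own, of which 100 were tested. At day 2, 59 of the 100 were called lower than in cycling myoblasts and 13 higher, beside 37.4% and 42.8% of all genes. The 5 called at least 2-fold lower were a smaller share than the 8.41% of all genes, and 0 were called 2-fold higher. At day 5, 75 were called lower and 0 higher, beside 38.1% and 29.7% of all genes. At least 2-fold lower on both scales were 13, which is near the share of 12.3% of all genes. As deposited alone, 68 were at least 2-fold lower at day 5, beside 29.2% of all genes, so this count rests on the scale. Their median at day 5 against cycling myoblasts came to -1.25 as deposited and -0.35 on the common scale. Of the 10 further Pol I genes among them, 4 were called lower and 4 higher at day 2, close to the shares of all genes. At day 5, 5 of these 10 were called lower and 0 higher, beside 38.1% and 29.7% of all genes.

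Taf1a, a subunit of the factor that recruits Pol I to its promoter, fell most among these 100 genes. It averaged 7.89 in cycling myoblasts, 6.61 in day 2 myotubes and 5.35 in day 5 myotubes, a day 5 difference from cycling myoblasts of -2.54 as deposited and -1.67 on the common scale. Rcl1, a small-subunit processing factor, averaged 7.55, 6.11 and 5.06 in that order of time, with a day 5 difference of -2.49 and -1.62 on the 2 scales. Mdn1, a giant ATPase that remodels the large-subunit precursor, had a day 5 difference of -2.38 and -1.50. At the other end stood the 3 genes with the highest day 5 differences as deposited, which had no fall on the common scale. Further genes also had no fall on that scale at day 5, among them Nol12 (0.66), Bysl (0.66) and Cd3eap (0.47). Polr1d, a subunit shared with RNA polymerase III, averaged 7.73 in cycling myoblasts, 8.43 in day 2 myotubes and 7.72 in day 5 myotubes, and was called higher at day 2 by 0.70 in the deposited values and 0.87 on the common scale. Znrd1, another Pol I subunit, differed at day 5 from cycling myoblasts by 0.02 as deposited (adjusted p = 0.393, limma) and 1.00 on the common scale. Sbds, which acts late on the large subunit, had -0.20 as deposited and 0.67 on the common scale.

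**Figure D4:**
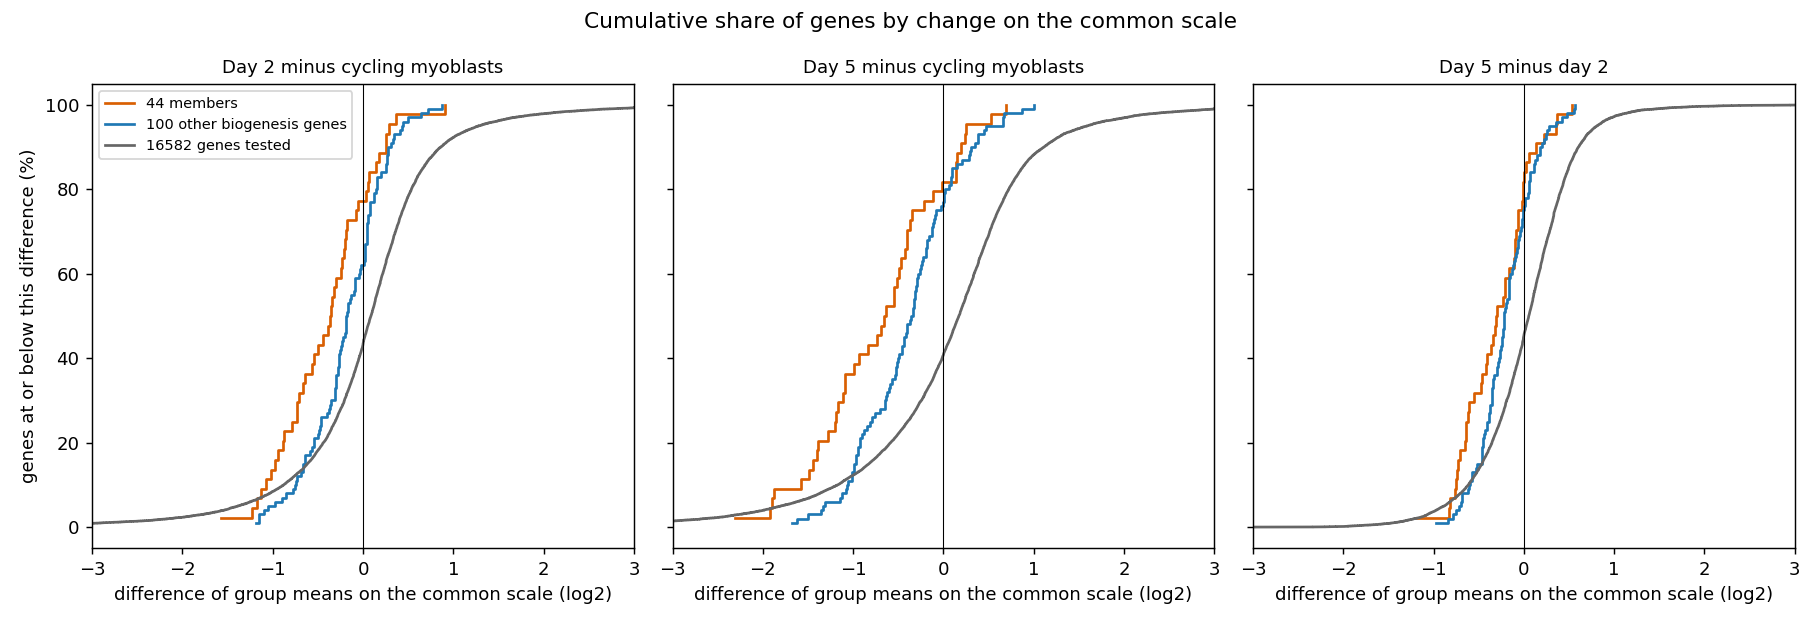
Cumulative share (%) of genes by log2 difference on the common scale, for the 44 members, 100 other biogenesis genes and all 16582 genes tested, in the 3 comparisons. The member curve lies left of the all-gene curve over most of its range, with medians of -0.36, -0.65 and -0.31 against 0.09, 0.17 and 0.06, but not at the far left, where the all-gene curve has the longer tail.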

How the data were processed

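RNA of 9 samples was hybridised to Affymetrix arrays. The deposited values are log2 expression values made with RMA and normalized per replicate set, per the submitters' processing notes and the series' design text. No version of RMA is stated in those sources. Of 35556 probe sets, 21789 name 1 gene, 1621 several and 12146 none in the platform annotation. Entrez identifiers of 21698 matched RefSeq genes of GRCm38.p6 and 0 symbols changed. The probe set with the highest mean stood for each of 19938 genes, and a gene entered the tests if 3 or more arrays had it above their 30th percentile.

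limma 3.58.1 (R 4.3.3; lmFit, eBayes) estimated a mean for each time point from the 9 arrays, with Benjamini-Hochberg adjustment over 16582 genes, on the deposited log2 values and after quantile normalization of all 9 arrays. The fit was tested on simulated data. The common scale removes any true shift of a whole array, so neither scale gives absolute amounts. Array values were printed for members called at least 2-fold and for those with the largest and smallest day 5 difference in each role. Of the other pathway genes, those with the 3 largest falls and the 3 highest differences at day 5, as deposited, were named with values. The members and lists were chosen with earlier results of these data known. Between arrays of a time point, r was 0.990 to 0.998, and between time points 0.902 to 0.967. Between arrays of the same replicate number, correlations of deviations from the time point means were -0.0382 to 0.106. Since 47.9 to 60.2% of probe sets had identical values on all 3 arrays of a time point, this cannot show that the arrays were unpaired. Alternatives were other scalings, filters, probe set rules and variance settings, a replicate block and leaving out each array. The number of arrays limits the precision.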

Additional observations from a re-analysis of the deposited data

How the results depend on the processing

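The counts of members at least 2-fold lower called on both scales were 6 at day 2, 16 at day 5 and 1 between them. They were unchanged with no filter, a 50th percentile filter, trend and robust variances, or the replicate block, which gave 16 at day 5 and moved no call. Averaging all probe sets of a gene gave 5 at day 2, without Fbl. Leaving out each array in turn gave 6 at day 2 and 15 to 17 at day 5, and the deposited median at day 5 ranged from -1.61 to -1.55.

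On the quantile-normalized scale alone, 9 members were called higher at day 2, 8 at day 5 and 6 at day 5 against day 2, and the medians were -0.36, -0.65 and -0.31. Signs turned there at day 2 for Rrp9 (0.0706), Noc4l (0.18) and Pes1 (0.0552), and at day 5 against cycling myoblasts for Nop10 (0.24), Utp14a (0.20), Imp3 (0.15), Noc4l (0.53), Nat10 (0.25), Rrp12 (0.70), Bop1 (0.14) and Nop16 (0.14). At day 5 against day 2 they turned for Ubtf (0.14), Tcof1 (0.37), Noc4l (0.35), Nat10 (0.22) and Rrs1 (0.0534). With each array centred on its median, 7 members were called higher at day 2 and 1 at day 5, 27 at least 2-fold lower at day 5 and 13 at day 5 against day 2, with medians of -0.43, -1.23 and -0.70, and Noc4l at day 2 (0.0267) and Rrp12 at day 5 (0.0887) turned sign. Shares of all genes called under these scalings are not given, so these counts describe the members only and are not set against a background. Each scaling, by its construction, moves a gene by an amount set by its array and level. The deposited table holds no background signal, so whether low levels exceed it is unknown.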
